A study of Homo sapiens with 6 samples.

Results

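The genes described here are the G1 cyclins, their kinases and a pair of kinase inhibitors, 10 named genes of the 17573 with a usable unique name in the deposited tables: the D cyclins CCND1, CCND2 and CCND3, the E cyclins CCNE1 and CCNE2, the kinases CDK2, CDK4 and CDK6, and the inhibitors CDKN1B (p27) and CDKN2C (p18). They were chosen by name, with earlier results of these data known. Their RNA was sequenced from HUVECs, which are primary human endothelial cells derived from umbilical veins. The cells of 3 libraries had received 8OH-G miR-483, a version of the microRNA miR-483 whose name points to oxidised guanine, though the labels do not say which base or which arm, and those of the other 3 libraries had received miR-483 with no such mark. In both groups the microRNA was delivered with Lipofectamine RNAi max, the labels call both overexpression, and RNA was taken on day 2. No library of the scramble control named in the labels was among those analysed. Each difference therefore lies between the 2 microRNA forms and has no scramble or untransfected baseline. Whether replicate libraries were grown as separate cultures is not stated, and the p-values below reflect just the spread among these libraries, which may be technical.

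In G1, mitogens raise the D cyclins, which bind CDK4 and CDK6 and begin to phosphorylate the retinoblastoma protein RB. RB then releases E2F transcription factors, which drive the E cyclin genes among others, and cyclin E with CDK2 carries the cell into S phase. The INK4 inhibitors, p18 among them, bind CDK4 and CDK6 alone, while p27 binds assembled complexes and is a strong inhibitor of cyclin E with CDK2. Quiescent endothelium is known for low G1 cyclin activity and high p27. The values below are RNA levels and say nothing of protein or kinase activity.

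Values are taken as FPKM (the files name no unit), read fragments scaled to transcript length and library size, so levels of different genes can be set beside each other. Read depth is not known from these values, so no counting interval is given. The deposited totals ran from 1598260 to 1687280 FPKM in the 8OH-G miR-483 libraries and from 1396540 to 1440420 FPKM in the miR-483 libraries, and 71.3% to 76.6% of a total lay on mitochondrial rows. Rows at 0 numbered 287 to 405 with 8OH-G miR-483 and 579 to 2663 with miR-483, the highest in miR-483 replicate 1, and the same 6 genes of this set were called with that library left out. All 11 endothelial markers passed the filter of 1 FPKM in 3 libraries, with a summed level of 1456 to 1709 FPKM in 8OH-G miR-483 libraries and 2288 to 2327 FPKM in miR-483 libraries, and 6 of them were called lower and 0 higher with 8OH-G miR-483. The 1 mural marker analysed, ACTA2, stayed under 2 FPKM in each library, and 4 fibroblast markers summed to 0.668 to 1.41 FPKM with 8OH-G miR-483 and 0.536 to 0.815 FPKM with miR-483. The only leukocyte marker analysed, LYZ, was at 0 to 0.179 FPKM with 8OH-G miR-483 and 3.66 to 4.32 FPKM with miR-483. Epithelial and erythroid markers were not analysed here. The part of these marker levels in the results below was not tested. A gene counted as called when limma on log2(FPKM + 1) gave an adjusted p (Benjamini-Hochberg over 12202 tested genes) under 0.05.

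Cyclins and kinases of the D and E type separated into genes that were higher with 8OH-G miR-483 and genes that were not called, often within 1 family. CCND1, CCNE1, CCNE2, CDK2, CDK4 and CDKN2C rose, CCND3, CDK6 and CDKN1B were not called, and 0 of the genes fell. That is 6 of the 9 tested genes called higher, where 35.1% of all tested genes were called higher, 20.4% lower and 55.5% in either direction. After median-ratio scaling 3331 genes were higher and 3325 lower, against 4277 and 2492 as deposited, the median of all genes moved from 0.096 to -0.0021, and the same 6 genes were called. CCND2 lay below the filter of 1 FPKM in 3 libraries and was not tested, and CCNE2 met that filter in all 8OH-G miR-483 libraries but in only 2 of the miR-483 libraries. The median log2 fold change of the 9 tested genes was 0.69, against 0.10 for all tested genes. The values of the groups did not overlap in 7 of the 9, against 63.4% of all tested genes. In bulk RNA, a larger share of cycling cells and more RNA per cycling cell cannot be told apart.

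**Figure D1:**
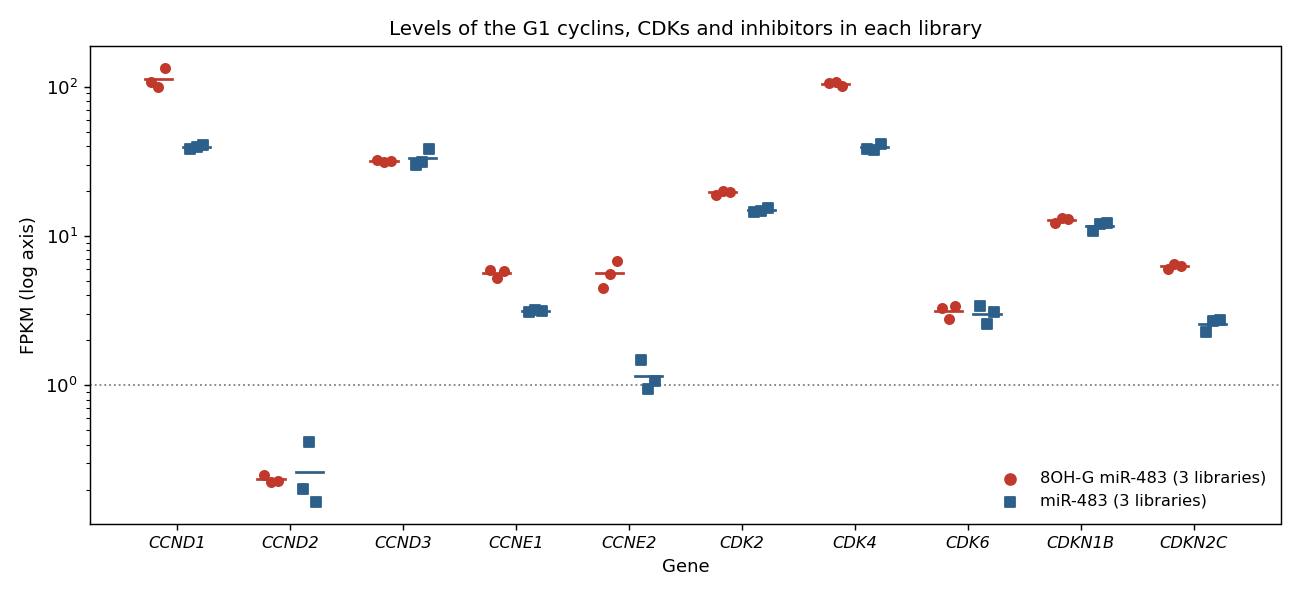
FPKM of each gene on a log axis, with 8OH-G miR-483 libraries as red circles left of miR-483 libraries as blue squares, bars at the group means and a dotted line at 1 FPKM. CCND1 and CDK4 lie near 100 FPKM with 8OH-G miR-483 and near 40 FPKM with miR-483, while CCND3, CDK6 and CDKN1B lie at similar levels in both groups.

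Within the D cyclins, CCND1 rose while CCND3 was not called. CCND1, the D cyclin best known as a sensor of growth factor signalling, was at 107, 99.2 and 134 FPKM in the 8OH-G miR-483 libraries, against 38.4, 39.5 and 40.8 FPKM in the miR-483 libraries. The lowest 8OH-G miR-483 library lay 58.5 FPKM above the highest miR-483 library. The means were 113 ± 18.3 and 39.6 ± 1.21 FPKM (SD, n = 3 libraries each), a ratio of 2.86. CCND1 rose by a log2 fold change of 1.48 on the log2(FPKM + 1) scale (SE 0.107, limma adjusted p = 1.10e-05), the 245th highest of the 12202.

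CCND3, the cyclin that can stand in for CCND1 in many cell types, did not move with it. Its levels were 32.2, 31.2 and 31.6 FPKM with 8OH-G miR-483, against 30, 31.5 and 38.4 FPKM with miR-483, so the groups overlapped. The means were 31.7 ± 0.540 and 33.3 ± 4.47 FPKM (SD, n = 3 each), with a log2 fold change of -0.06 (SE 0.0926, 95% interval -0.27 to 0.15, limma adjusted p = 0.593). That interval lies wholly below the one for CCND1, 1.24 to 1.73 on the same scale. The third D cyclin, CCND2, was close to absent in both groups, at 0.252, 0.225 and 0.227 FPKM with 8OH-G miR-483 and 0.203, 0.418 and 0.166 FPKM with miR-483. Its groups overlapped, and with no filter on low values its log2 fold change was -0.03 (SE 0.0850, limma adjusted p = 0.829).

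The D cyclin pool therefore differed in make-up as well as in size. The 3 genes summed to 145 ± 18.4 FPKM with 8OH-G miR-483 and 73.1 ± 5.56 FPKM with miR-483 (SD, n = 3 each). CCND1 held 76.6%, 76.0% and 80.8% of this sum in the 8OH-G miR-483 libraries, against 55.9%, 55.4% and 51.4% in the miR-483 libraries. CCND3 held 19.1% to 23.9% of it with 8OH-G miR-483 and 43.8% to 48.4% with miR-483. The ratio of CCND1 to CCND3 was 3.58 ± 0.576 with 8OH-G miR-483 and 1.2 ± 0.118 with miR-483, without overlap. Such ratios within a library do not depend on how libraries are scaled to each other. With 3 libraries against 3, the exact two-sided permutation test cannot give a p below 0.1, and no p is given for the ratios, of which 20 sums, shares and ratios were computed in all.

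The kinases that D cyclins bind split in the same way. CDK4 was at 106, 107 and 100.5 FPKM in the 8OH-G miR-483 libraries, against 38.5, 37.9 and 41.2 FPKM in the miR-483 libraries. No library of either group came near the other, and the means were 105 ± 3.76 and 39.2 ± 1.78 FPKM (SD, n = 3 each), a ratio of 2.67. CDK4 rose by 1.40 on the log2(FPKM + 1) scale (SE 0.0653, limma adjusted p = 1.58e-06), the smallest adjusted p of the 10 genes. CDK6, its close relative with the same cyclin partners, was at 3.29, 2.78 and 3.42 FPKM with 8OH-G miR-483, against 3.41, 2.57 and 3.07 FPKM with miR-483. Its groups overlapped almost completely, and its log2 fold change was 0.05 (SE 0.103, 95% interval -0.18 to 0.29, limma adjusted p = 0.684). CDK4 RNA was the more abundant of the pair in both groups, by 33.5 ± 4.77 times with 8OH-G miR-483 and 13.1 ± 1.73 times with miR-483.

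CCND1 and CDK4 were at nearly equal levels in both groups. Their ratio was 1.00, 0.923 and 1.33 in the 8OH-G miR-483 libraries, against 0.997, 1.04 and 0.990 in the miR-483 libraries, and the groups overlapped. CCND1 was the more variable of the pair with 8OH-G miR-483: the third library was the highest for CCND1 and the lowest for CDK4.

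The CDK4 promoter is shown because the gene rose with MYC, a factor that binds the E-box CACGTG and is known to drive CDK4. MYC was at 49.5 ± 1.91 FPKM with 8OH-G miR-483 and 26.2 ± 0.943 FPKM with miR-483 (SD, n = 3 each). The word was chosen after the windows had been read. The window runs from 250 bases before to 50 bases after the RefSeq start, at chr12:57752261-57752560 on the minus strand of GRCh38.p14, and capitals mark CACGTG. It begins 216, 196 and 101 bases before the start. At least 1 such word was present in 7.26% of the 35116 RefSeq windows of this length, and 3 or more in 0.094%. As the word was chosen after reading and 3 is the count of this window, these shares test nothing. A part of MYC in the rise of CDK4 was not tested. The word reads the same on both strands, and a match is a description of the sequence, not a measured binding site.
CDK4: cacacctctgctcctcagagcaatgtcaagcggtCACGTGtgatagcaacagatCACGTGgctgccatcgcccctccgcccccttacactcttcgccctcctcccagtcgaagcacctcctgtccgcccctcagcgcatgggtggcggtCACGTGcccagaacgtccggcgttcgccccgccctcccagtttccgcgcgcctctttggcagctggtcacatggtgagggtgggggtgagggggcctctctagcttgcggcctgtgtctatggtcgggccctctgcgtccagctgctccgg

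The E cyclins both rose, CCNE2 by more. CCNE2 was at 4.46, 5.53 and 6.85 FPKM in the 8OH-G miR-483 libraries, against 1.47, 0.949 and 1.07 FPKM in the miR-483 libraries. The libraries given 8OH-G miR-483 were spread more widely, yet all lay at least 2.99 FPKM above those given miR-483. The means were 5.61 ± 1.2 and 1.16 ± 0.275 FPKM (SD, n = 3 each), a ratio of 4.83 that is the largest among the 10 genes. On the log2(FPKM + 1) scale CCNE2 rose by 1.6 (SE 0.144, limma adjusted p = 3.38e-05), and by 2.27 with a pseudocount of 0.01, as the pseudocount of 1 understates the change of a gene this low.

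CCNE1, the other activator of CDK2, was at 5.96, 5.23 and 5.83 FPKM with 8OH-G miR-483, against 3.10, 3.17 and 3.12 FPKM with miR-483. Its groups lay 2.06 FPKM apart, with means of 5.67 ± 0.391 and 3.13 ± 0.0367 FPKM (SD, n = 3 each). CCNE1 rose by 0.69 on the log2(FPKM + 1) scale (SE 0.0739, limma adjusted p = 8.84e-05), and its 95% interval of 0.52 to 0.86 lay below that of CCNE2, 1.27 to 1.93.

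As a result the E cyclins lay closer in level with 8OH-G miR-483 than with miR-483. By mean CCNE1 was the higher in both groups. It was at 5.67 FPKM against 5.61 FPKM for CCNE2 with 8OH-G miR-483, and at 3.13 against 1.16 FPKM with miR-483. The ratio of CCNE1 to CCNE2 was 1.34, 0.945 and 0.851 with 8OH-G miR-483, against 2.10, 3.34 and 2.93 with miR-483. CCNE1 was thus the higher of the pair in each miR-483 library and in 1 of 3 8OH-G miR-483 libraries, where the levels of the E cyclins overlapped. Together they summed to 11.3 ± 1.22 FPKM with 8OH-G miR-483 and 4.29 ± 0.243 FPKM with miR-483 (SD, n = 3 each).

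CDK2, the kinase that E cyclins activate, rose less than its partners. It was at 18.9, 20.1 and 19.8 FPKM with 8OH-G miR-483, against 14.4, 14.6 and 15.4 FPKM with miR-483, and the groups did not overlap. The means were 19.6 ± 0.624 and 14.8 ± 0.521 FPKM (SD, n = 3 each), a ratio of 1.32. The log2 fold change was 0.38 (SE 0.0638, limma adjusted p = 0.00114), close to the upper quartile of all tested genes, also 0.38. It did not pass when the test asked for a change beyond 1.2-fold (adjusted p = 0.159). CDK4 exceeded CDK2 by 5.35 ± 0.276 times with 8OH-G miR-483 and 2.64 ± 0.0452 times with miR-483.

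The inhibitors also parted. CDKN2C, whose product p18 binds CDK4 and CDK6, was at 6.06, 6.50 and 6.28 FPKM in the 8OH-G miR-483 libraries, against 2.27, 2.70 and 2.72 FPKM in the miR-483 libraries. The gap between the groups, 3.34 FPKM, was wider than the spread within either. The means were 6.28 ± 0.221 and 2.56 ± 0.255 FPKM (SD, n = 3 each), a ratio of 2.45, and CDKN2C rose by 1.03 on the log2(FPKM + 1) scale (SE 0.0800, limma adjusted p = 1.54e-05). The inhibitor thus rose along with CDK4, while CDK6, the other kinase it binds, was not called (log2 fold change 0.05, limma adjusted p = 0.684). CDK4 stood at 16.7 ± 0.795 times CDKN2C with 8OH-G miR-483 and 15.4 ± 1.48 times with miR-483, and these ratios overlapped.

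The CDKN2C window with an E2F-type word is shown because E2F1, a factor that binds such words, rose as well (log2 fold change 1.98, limma adjusted p = 9.53e-07). It lies at chr1:50968456-50968755 on the plus strand of GRCh38.p14, 1 of 3 RefSeq start windows of the gene. Capitals mark E2F words on either strand, here TTTCCCGC, TTTCGCGC, TTTGCCGC or TTTGGCGC without their first T, a form chosen after the windows had been read. They begin 131 and 34 bases before the start. Such a word was present in 13.0% of the 35116 windows. The 8-letter forms, with that T, were present in 3.32% of windows and in 0 of the 11 windows of the 6 genes that the table holds (CCND3, CCNE1, CDK4, CDK6, CDKN1B and CDKN2C). As the shorter form was chosen after reading, its share tests nothing. A part of E2F1 in the rise of CDKN2C was not tested, and a match here too is not a measured binding site. The CCNE1 window, at chr19:29811741-29812040 on the plus strand, held none of the words searched and is shown in lower case for comparison, as CCNE1 is a classic E2F-regulated gene that rose.
CDKN2C: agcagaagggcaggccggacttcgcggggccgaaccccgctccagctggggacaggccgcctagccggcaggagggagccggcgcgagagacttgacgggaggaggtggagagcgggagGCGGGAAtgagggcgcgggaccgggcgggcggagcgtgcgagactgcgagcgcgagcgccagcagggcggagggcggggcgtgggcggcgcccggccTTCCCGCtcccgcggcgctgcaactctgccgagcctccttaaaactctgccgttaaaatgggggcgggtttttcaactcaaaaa
CCNE1: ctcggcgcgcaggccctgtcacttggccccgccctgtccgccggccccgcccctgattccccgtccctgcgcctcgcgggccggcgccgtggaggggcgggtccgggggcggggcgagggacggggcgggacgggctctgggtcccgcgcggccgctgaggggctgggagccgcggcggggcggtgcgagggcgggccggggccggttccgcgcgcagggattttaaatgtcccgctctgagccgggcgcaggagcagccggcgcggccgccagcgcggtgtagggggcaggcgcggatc

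The remaining words gave few matches in these 11 windows. TTTGAA, the cell cycle homology region, was in 0 of them and in 15.2% of all windows, and TGACGTCA, the cyclic AMP response element, in 0 of them and 1.85% of all windows. GTAAACA, the forkhead word, was in 1 window of CCND3 and in 3.42% of all windows. CACGTG was also in 1 window of CDK6 and in the other 2 windows of CDKN2C.

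CDKN1B, whose product p27 holds cells in quiescence, was at 12.3, 13.1 and 13.0 FPKM with 8OH-G miR-483, against 10.8, 12 and 12.2 FPKM with miR-483. The groups were set apart by only 0.0679 FPKM. The means were 12.8 ± 0.474 and 11.7 ± 0.764 FPKM (SD, n = 3 each), with a log2 fold change of 0.13 (SE 0.0716, 95% interval -0.04 to 0.29, limma adjusted p = 0.164). Against a rising E cyclin pool, its relative level was lower: 1.14 ± 0.102 FPKM of CDKN1B per FPKM of E cyclin with 8OH-G miR-483 and 2.73 ± 0.319 with miR-483. CDKN2C was at 0.490 ± 0.00701 of the CDKN1B level with 8OH-G miR-483 and 0.219 ± 0.00802 with miR-483. Neither ratio overlapped between the groups.

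**Figure D2:**
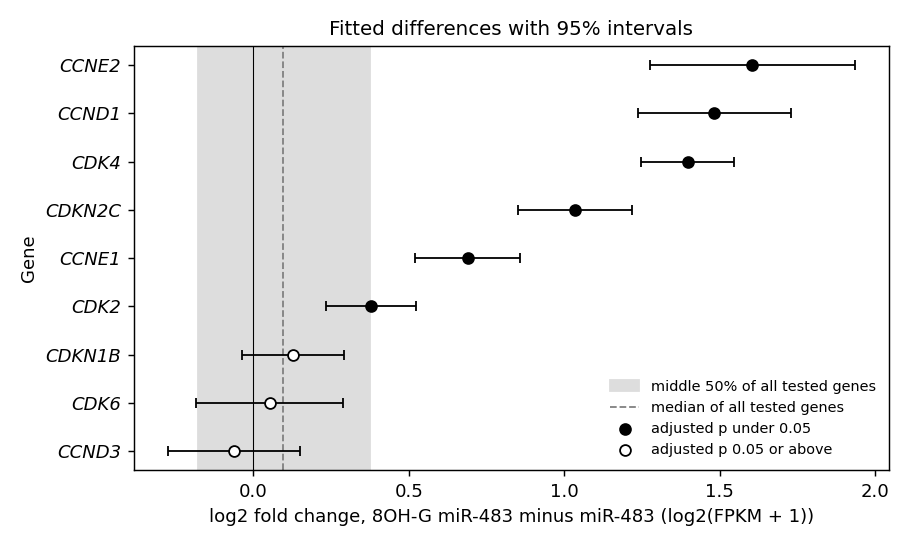
Fitted log2 fold change of the 9 tested genes on the log2(FPKM + 1) scale, positive where higher with 8OH-G miR-483, with 95% intervals from limma; the grey band spans the quartiles of all tested genes (-0.18 to 0.38) and the dashed line is their median of 0.10. CCNE2, CCND1, CDK4, CDKN2C and CCNE1 lie wholly to the right of the band, and CDKN1B, CDK6 and CCND3 have intervals that include 0.

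**Figure D3:**
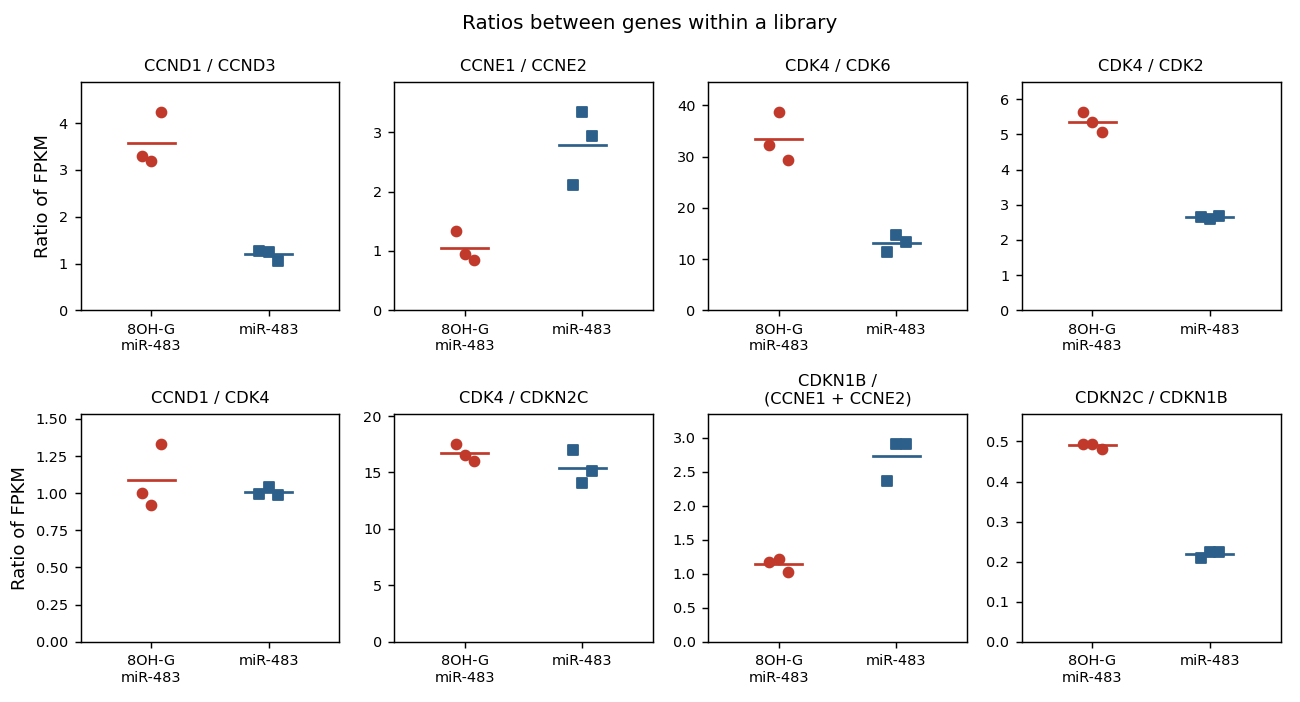
Ratios of FPKM between pairs of genes within each library, with 8OH-G miR-483 (red circles) left of miR-483 (blue squares), bars at the means and axes from 0. The ratios CCND1 to CDK4 and CDK4 to CDKN2C overlap between the groups, while the other 6 do not.

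Across libraries given 8OH-G miR-483, the order of levels was CCND1 and CDK4 (overlapping), CCND3, CDK2, CDKN1B, then CDKN2C, CCNE1 and CCNE2, CDK6 and CCND2. CCNE2 overlapped both CDKN2C and CCNE1 there and was above CDKN2C in replicate 3, while CDKN2C and CCNE1 did not overlap. With miR-483 it was CCND1, CDK4 and CCND3, all overlapping one another, then CDK2, CDKN1B, CCNE1, CDK6, CDKN2C, CCNE2 and CCND2. CDK6 overlapped CCNE1 and CDKN2C in that group, and the other genes after CCND3 overlapped none. All 10 genes together summed to 303 ± 16.2 FPKM with 8OH-G miR-483 and 149 ± 8.33 FPKM with miR-483 (SD, n = 3 each). The genes whose 6 values lay closest to those of CCNE2, the gene with the largest rise, were CDCA3, CENPK, DDIAS, TK1 and CENPE, by Euclidean distances of 0.217 to 0.259 over 6 gene-centred log2(FPKM + 1) values. TK1, the thymidine kinase of S phase, was at 29.7 ± 3.46 FPKM with 8OH-G miR-483 and 9.77 ± 0.885 FPKM with miR-483, and CENPE, a kinetochore motor, at 7.85 ± 1.70 and 1.64 ± 0.210 FPKM (SD, n = 3 each). With 6 libraries in 2 groups, this likeness rests mainly on the difference between the groups.

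Some of the genes share their locus with others, and whether counting used strand is not given in the sources used here. LTO1 overlaps CCND1, and CCND2, CCND3 and CDK6 also have overlapping genes. None of these had a unique row of the same name, so their levels were not read. INTS8, on the opposite strand with exons overlapping CCNE2, was at 20.3 ± 0.742 FPKM with 8OH-G miR-483 and 15.8 ± 0.802 FPKM with miR-483 (log2 fold change 0.34, limma adjusted p = 0.00287). TSPAN31, which overlaps CDK4 in the same way, was at 12.1 ± 0.667 and 9.91 ± 0.414 FPKM (log2 fold change 0.26, limma adjusted p = 0.0125). Their fitted changes were smaller than those of CCNE2 and CDK4. PMEL, opposite CDK2, stayed under 1 FPKM in mean in both groups, at 0.132 ± 0.0760 FPKM with 8OH-G miR-483 and 0.468 ± 0.152 FPKM with miR-483. The share of reads these neighbours lent to the cyclin and kinase rows was not tested.

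Of 7 tested genes that activate or assemble the kinases or, for WEE1, inhibit them, 5 rose and 0 fell. Of all tested genes, 35.1% rose and 20.4% fell. The median log2 fold change of the 7 was 0.64, against 0.10 for all tested genes. CKS1B, the small subunit through which SKP2 recognises p27, was at 44.1 ± 2.89 FPKM with 8OH-G miR-483 and 12 ± 0.972 FPKM with miR-483 (SD, n = 3 each), and its relative CKS2 at 75.3 ± 8.56 and 27.7 ± 2.84 FPKM. CDC25A, the phosphatase that activates CDK2, was at 5.92 ± 0.632 and 1.58 ± 0.0960 FPKM. WEE1, a kinase that inhibits CDK2 and CDK1, rose as well, by 0.56 on the log2(FPKM + 1) scale, and CCNH, the cyclin of the CDK-activating kinase, by 0.64. MNAT1 and the CDK4 chaperone CDC37 were not called, at adjusted p values of 0.207 and 0.356 (limma). After median-ratio scaling CDC37 was called lower (log2 fold change -0.20, limma adjusted p = 0.0419), but not after quantile normalization (-0.045, 0.480).

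Another list held ubiquitin ligase genes that act on p27 and the G1 cyclins, and the deubiquitinase USP28. Of its 12 genes, 3 rose and 1 fell, with a median of 0.04. These shares lie below the 35.1% and 20.4% of all tested genes, so the count shows nothing particular to the list. SKP2, which marks p27 for destruction, was at 9.49 ± 1.06 FPKM with 8OH-G miR-483 and 3.86 ± 0.843 FPKM with miR-483 (SD, n = 3 each; log2 fold change 1.12, limma adjusted p = 1.66e-04). FBXW7, which marks cyclin E, fell to 5.19 ± 0.468 FPKM with 8OH-G miR-483, against 7.76 ± 0.578 FPKM with miR-483 (log2 fold change -0.50, adjusted p = 0.00111). CUL3, a scaffold of another cyclin E ligase, rose by 0.32, and CUL1, the scaffold that SKP2 and FBXW7 share, by 0.20. Neither median-ratio scaling (adjusted p = 0.251) nor quantile normalization (0.171) kept the CUL1 call, which held in 3 of 6 fits with a library left out, while RNF123, not called as deposited, was called lower after both (0.018 and 0.00811).

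Of the other CDK inhibitors, 1 of 4 tested rose and 1 fell, near the 35.1% and 20.4% of all tested genes. CDKN2D, the INK4 protein p19, fell to 3.12 ± 0.263 FPKM with 8OH-G miR-483, against 4.88 ± 0.660 FPKM with miR-483 (SD, n = 3 each; log2 fold change -0.51, limma adjusted p = 0.00276), the opposite direction to CDKN2C. CDKN2B was at 2.92 ± 0.618 and 2.13 ± 0.0636 FPKM (adjusted p = 0.0452), a call that was lost after median-ratio scaling (0.113) and quantile normalization (0.170) and held in 1 of 6 fits with a library left out. CDKN1A, p21, was the most abundant inhibitor, at 118 ± 4.68 and 128 ± 3.36 FPKM (adjusted p = 0.165), and was called lower after median-ratio scaling (log2 fold change -0.23, adjusted p = 0.0152). CDKN2A was not called, at 3.78 ± 0.693 FPKM with 8OH-G miR-483 and 2.93 ± 0.320 FPKM with miR-483 (adjusted p = 0.0735), and its exons are partly shared between proteins of different function. CDKN2C supplied 39.2% ± 3.16 of the summed INK4 FPKM with 8OH-G miR-483 and 20.5% ± 0.573 with miR-483.

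Downstream, the RB and E2F genes gave 9 higher and 1 lower of 12 tested, against 35.1% and 20.4% of all tested genes, with a median of 0.49. E2F1 was at 10.8 ± 0.733 FPKM with 8OH-G miR-483 and 1.99 ± 0.121 FPKM with miR-483 (SD, n = 3 each). RBL1 (p107), itself a pocket protein of cycling cells, rose by 1.17 on the log2(FPKM + 1) scale, while RBL2 (p130), the pocket protein of quiescent cells, fell by 0.34. RB1 was at 14.8 ± 0.570 FPKM with 8OH-G miR-483 and 13.6 ± 1.04 FPKM with miR-483 and was not called (limma adjusted p = 0.248). After either scaling 8 rose and 1 fell. E2F2 was under the filter, at 0.846 to 1.01 FPKM with 8OH-G miR-483 and 0.0619 to 0.109 FPKM with miR-483. All 5 later cyclin and CDK1 genes rose, with a median of 2.05, and so did the 8 proliferation markers, also with a median of 2.05 and log2 fold changes from 1.39 for PCNA to 2.64 for MCM2. CDK1, the kinase of mitosis, was at 33.7 ± 2.54 FPKM with 8OH-G miR-483 and 6.15 ± 0.285 FPKM with miR-483 (SD, n = 3 each). The part of the share of cycling cells in these values was not tested.

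Among 16 genes that act above the G1 cyclins and p27, 4 rose and 8 fell, against 35.1% and 20.4% of all tested genes, with a median of -0.21; under median-ratio scaling these counts were 3 and 8. The endothelial quiescence factors KLF4 and KLF2 fell by 3.16 and 3.56 on the log2(FPKM + 1) scale. FOXO4, one of the forkhead factors known to induce CDKN1B, was at 2.53 ± 0.260 FPKM with 8OH-G miR-483 and 6.03 ± 0.140 FPKM with miR-483 (SD, n = 3 each), and FOXO3 at 2.71 ± 0.166 and 3.94 ± 0.409 FPKM. Both were called lower (limma adjusted p = 1.81e-05 and 0.00382), whereas FOXO1, the most abundant of these forkhead genes, was called higher, at 18.3 ± 0.869 and 14.4 ± 0.440 FPKM (adjusted p = 0.00292). WWTR1, the YAP1 relative TAZ, fell by 0.68.

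**Figure D4:**
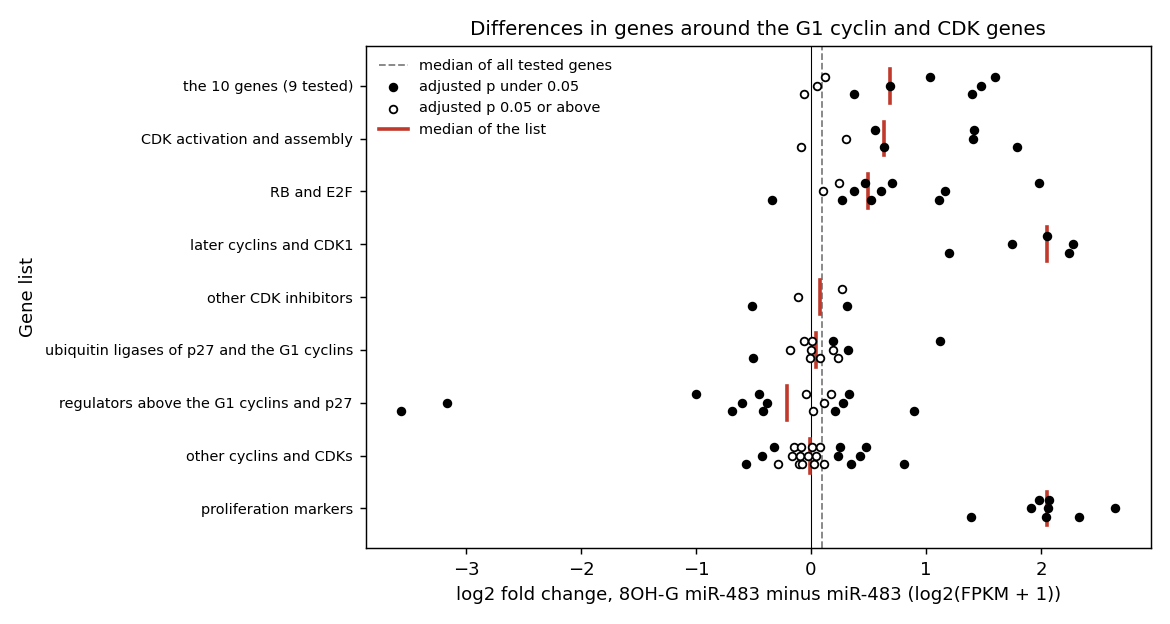
Fitted log2 fold changes (log2(FPKM + 1) scale, positive where higher with 8OH-G miR-483) of the tested genes in each list, filled where adjusted p was under 0.05, with the list median in red and the median of all tested genes as a dashed line. The later cyclins with CDK1 and the proliferation markers have medians of 2.05, the 9 tested G1 genes 0.69, and the regulators above them -0.21.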

How the data were processed

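Deposited RNA levels of 6 HUVEC libraries, 3 per group, were analysed. Per the submitters' processing notes, the tools named are DESeq2, HTSeq, STAR and cutadapt and the build hg19, without versions, roles or order. The deposited values carry no stated unit and were taken as FPKM made by the authors, from their decimals and from totals of at least 1396540, too high for CPM or TPM. Low values of 472 genes in miR-483 replicates 2 and 3 were within 0.05 log2 of a whole-read ratio for 19.7% of genes at the best depth ratio (median 17.2% over ratios), so whole reads were not recovered.

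Rows whose name occurred more than once (3204) or had become a date (24, of which 15 were otherwise unique) were left out, which left 17573 of 20792 rows. Genes reaching 1 FPKM in 3 or more libraries were fitted with limma 3.58.1 in R 4.3.3 on log2(FPKM + 1) with trend and robust shrinkage, group as the only term, and Benjamini-Hochberg adjustment over 12202 genes; positive fold changes mean higher with 8OH-G miR-483. The script was tested on simulated data. The genes, the lists and the tests were chosen with earlier results of these data known. Named besides the 10 genes are up to 4 of each list with the smallest adjusted p, the 5 genes nearest in pattern to the called member with the largest rise, and some named after their values were seen (genes that were not called or that changed with scaling, CCNH, CCNC, RBL2, WWTR1, FOXO3 and FOXO1). List members without a unique row, and the miR-483 sequence and its seed matches, were not analysed here. Promoter windows are from RefSeq on GRCh38.p14, another build than hg19. CACGTG and the 7-letter E2F words were chosen after the windows had been read. Overlapping genes come from GENCODE 29, by name only. Figures were drawn with matplotlib 3.10.9.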

Additional observations from a re-analysis of the deposited data

How the results depend on the processing

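The calls of CCND1, CCNE1, CCNE2, CDK4 and CDKN2C kept their direction and their side of the threshold under all 16 alternatives (15 for CCNE2, which was under the filter of 5 FPKM), which covered the pseudocount, the filter, scaling, repeated names, a replicate block, the variance model, a fold threshold of 1.2 and each library left out. CDK2 was called under 15 of 16, the exception being the fold threshold (adjusted p = 0.159), under which 3307 genes were called in all, 2182 higher and 1125 lower, against 6769, 4277 and 2492. CCND3, CDK6 and CDKN1B were called under none, and the sign of CDK6 turned in 3 alternatives and that of CCND3 in 1, without miR-483 replicate 3. With each library left out in turn, 6 of the genes were called each time, and 5693 to 6209 of all genes. Median-ratio scaling and quantile normalization moved the median of all genes to -0.0021 and -0.011, against 0.096 as deposited, and the higher share of calls to 50% and 49.0%, against 63.2%. The rises then ran from 0.27 (CDK2) to 1.53 (CCNE2) and from 0.27 (CDK2) to 1.5 (CCNE2). Libraries of the same number did not all deviate together (correlations 0.025, 0.339 and 0.0087), and not every library correlated best with its own number. Whether the numbers pair the libraries cannot be settled from 3 libraries per group. With the replicate block, 7308 genes were called and so were the same 6 genes of this set. Without depth, the precision of low genes such as CCND2 rests on 3 libraries per group.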

Other observations

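Cyclins and CDKs outside the G1 set, most of which act in transcription or have other roles, gave a count that shows nothing particular to them. Of 22 tested, 6 rose, 3 fell and 13 were not called, where 35.1% of all tested genes rose and 20.4% fell, with a median log2 fold change of -0.01 on the log2(FPKM + 1) scale. CDK17 was at 50.8 ± 4.88 FPKM with 8OH-G miR-483 and 28.5 ± 0.725 FPKM with miR-483 (SD, n = 3 each; limma adjusted p = 5.68e-05). CCNG2, a cyclin known from arrested cells, fell to 6.86 ± 0.208 FPKM with 8OH-G miR-483, against 10.6 ± 0.925 FPKM with miR-483 (adjusted p = 3.38e-04). CDK19, a kinase of the Mediator complex, fell by 0.43 and CCNC, the cyclin it binds, rose by 0.43 on the same scale. After median-ratio scaling 3 of these 22 genes rose and 7 fell, with CDK17 and CCNC still called higher and CCNG2 and CDK19 still called lower.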
